A study of Homo sapiens with 100 samples.

Results

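The transcripts of the 5 NF-kB subunit genes, NFKB1, NFKB2, REL, RELA and RELB, were followed through 100 libraries of TMD8, a long-established human line of the activated B cell subtype of diffuse large B cell lymphoma. The members were the 5 rows with these symbols among 78894 gene identifiers, and all 5 passed the expression filter in each of the 40 comparisons below. Single-cell clones of the line served as replicates. There were 6 clones with the BTK A428D change at the endogenous locus and 5 wild-type clones, and each clone was cultured for 24 h with zelebrudomide, bexobrutideg, pomalidomide, venetoclax, venetoclax plus each of the other compounds, or the solvent DMSO. This gave 88 libraries in 16 groups of 6 (A428D) or 5 (wild type), to which 12 untreated libraries were added, from the same 11 clones and from the parental line. Zelebrudomide is a degrader of the kinase BTK that also directs the ligase subunit cereblon against the transcription factors IKZF1 and IKZF3. Bexobrutideg degrades BTK but lacks the activity against IKZF1 and IKZF3. Pomalidomide directs cereblon against IKZF1 and IKZF3 without acting on BTK, and venetoclax inhibits BCL2. The labels state no doses, so that no comparison between compounds is at a known matched dose. Sample titles attach A428D to SF3B1, whereas BTK is named in the texts on growth and design, and counts of transcript 3' ends cannot check the base change.

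NF-kB is a family of dimeric transcription factors. RELA and REL pair mostly with p50, the processed product of NFKB1, and are held in the cytoplasm by IkB proteins until the IKK complex is activated, which in B cells can follow B cell receptor signalling through BTK. RELB pairs mostly with p52, the processed product of NFKB2, and is released in the non-canonical branch through the kinase NIK. Lymphomas of the activated B cell type are known for constant NF-kB activity, and several subunit genes are themselves NF-kB targets. Transcripts, not proteins, processing or nuclear dimers, were measured here.

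Levels are CPM, counts divided by the library total in megareads, scaled by TMM over all 100 libraries, a method that corrects library totals for differences in RNA composition. They compare one gene between groups and not one gene with another. Library totals ran from 1476519 to 12501775 counted reads. The shallowest was clone 3 of the wild-type group given bexobrutideg plus venetoclax, whose subunit levels also stood apart. It held 117 CPM of NFKB1 against 47.5 to 51.1 in the other clones, 1.93 CPM of NFKB2 against 10.8 to 11.9, 8.67 CPM of RELA against 20.9 to 28.6 and 4.82 CPM of RELB against 23.5 to 30.5. Results that rest on this group are given with and without that library. All 7 B cell markers averaged above 1 CPM, with a summed level of 2663 to 6291 CPM per library. T cell and myeloid markers summed to at most 3.64 and 2.33 CPM. Fibroblast and endothelial markers summed to 2.28 to 35.0 CPM. In bulk cultures, fewer cells with a transcript and less of it per cell cannot be told apart.

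On GRCh38, NFKB1 lies on chromosome 4 (102501329 to 102617302, plus strand), NFKB2 on chromosome 10 (102394110 to 102402529, plus strand), REL on chromosome 2 (60881521 to 60931610, plus strand), RELA on chromosome 11 (65653596 to 65663094, minus strand) and RELB on chromosome 19 (45001430 to 45038198, plus strand). REL overlaps RNU4-51P and AC010733.2 on its own strand and RELA overlaps AP001362.2 on the opposite strand. Neither the strand setting of the counting nor its handling of shared reads was given in the sources used here, so reads of these pairs cannot be told apart. A strand setting could not separate REL from genes on its own strand. The lowest and highest REL counts of a library, 110.79 and 1273.46, were not whole. What part shared reads have in them is not known.

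The promoter windows of the subunits were searched for the canonical kappa B decamer, the binding motif of NF-kB, on both strands. Windows span 250 bases before to 50 bases after a RefSeq start site (GRCh38.p14), and 4 of the 5 genes, all but RELB, had entries. Capitals mark the motif matches, and the RELA window shown holds none.
NFKB1, chr4:102501109-102501408, plus strand: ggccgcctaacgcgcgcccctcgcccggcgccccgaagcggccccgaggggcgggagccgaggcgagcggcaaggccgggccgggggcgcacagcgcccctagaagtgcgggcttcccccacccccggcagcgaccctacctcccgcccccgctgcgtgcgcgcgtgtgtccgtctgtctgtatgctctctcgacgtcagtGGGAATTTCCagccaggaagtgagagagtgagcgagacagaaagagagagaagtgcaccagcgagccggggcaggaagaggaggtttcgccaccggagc
NFKB2, chr10:102394328-102394627, plus strand: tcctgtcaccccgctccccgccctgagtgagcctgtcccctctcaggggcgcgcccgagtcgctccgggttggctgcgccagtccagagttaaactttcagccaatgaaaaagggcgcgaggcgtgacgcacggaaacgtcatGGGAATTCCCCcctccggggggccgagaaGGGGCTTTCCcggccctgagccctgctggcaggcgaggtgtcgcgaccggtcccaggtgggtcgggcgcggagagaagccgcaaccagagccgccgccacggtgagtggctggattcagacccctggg
NFKB2, chr10:102395455-102395754, plus strand: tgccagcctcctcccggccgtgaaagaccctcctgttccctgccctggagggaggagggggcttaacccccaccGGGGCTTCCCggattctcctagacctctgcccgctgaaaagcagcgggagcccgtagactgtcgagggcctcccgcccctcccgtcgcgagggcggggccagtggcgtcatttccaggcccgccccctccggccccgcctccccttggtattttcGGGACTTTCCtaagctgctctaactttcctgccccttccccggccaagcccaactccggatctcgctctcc
REL, chr2:60881324-60881623, plus strand: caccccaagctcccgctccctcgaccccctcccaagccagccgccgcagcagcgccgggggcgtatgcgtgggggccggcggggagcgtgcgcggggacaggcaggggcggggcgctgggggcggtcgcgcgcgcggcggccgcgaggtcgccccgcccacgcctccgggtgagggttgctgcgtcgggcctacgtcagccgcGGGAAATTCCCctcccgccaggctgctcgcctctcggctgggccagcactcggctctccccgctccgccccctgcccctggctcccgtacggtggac
RELA, chr11:65662867-65663166, minus strand: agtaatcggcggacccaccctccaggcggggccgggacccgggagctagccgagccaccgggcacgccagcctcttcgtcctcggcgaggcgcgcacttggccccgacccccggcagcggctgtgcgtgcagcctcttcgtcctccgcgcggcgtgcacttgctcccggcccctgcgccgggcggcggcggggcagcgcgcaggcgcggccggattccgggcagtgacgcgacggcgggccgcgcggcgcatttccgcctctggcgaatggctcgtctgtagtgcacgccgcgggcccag
The NFKB1 match began 49 bases before the start site. In the first NFKB2 window shown, overlapping matches began 107 and 106 bases before the start site and a separate match began at 78, and in the second, matches began at 176 and 21 bases before it. REL held overlapping matches that began 47 and 46 bases before its start site. No match was found in a further NFKB1 window (chr4:102501684-102501983), a further NFKB2 window (chr10:102393860-102394159) or either RELA window (the second at chr11:65663808-65664107). Of all 35116 promoter windows of the table, 11.3% held a match. Counted by gene, 13.3% of its 27305 gene symbols had a window with a match. A match describes the letters of a window, and no binding was measured. Whether matches go with the changes of the subunits was not tested.

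**Figure D1:**
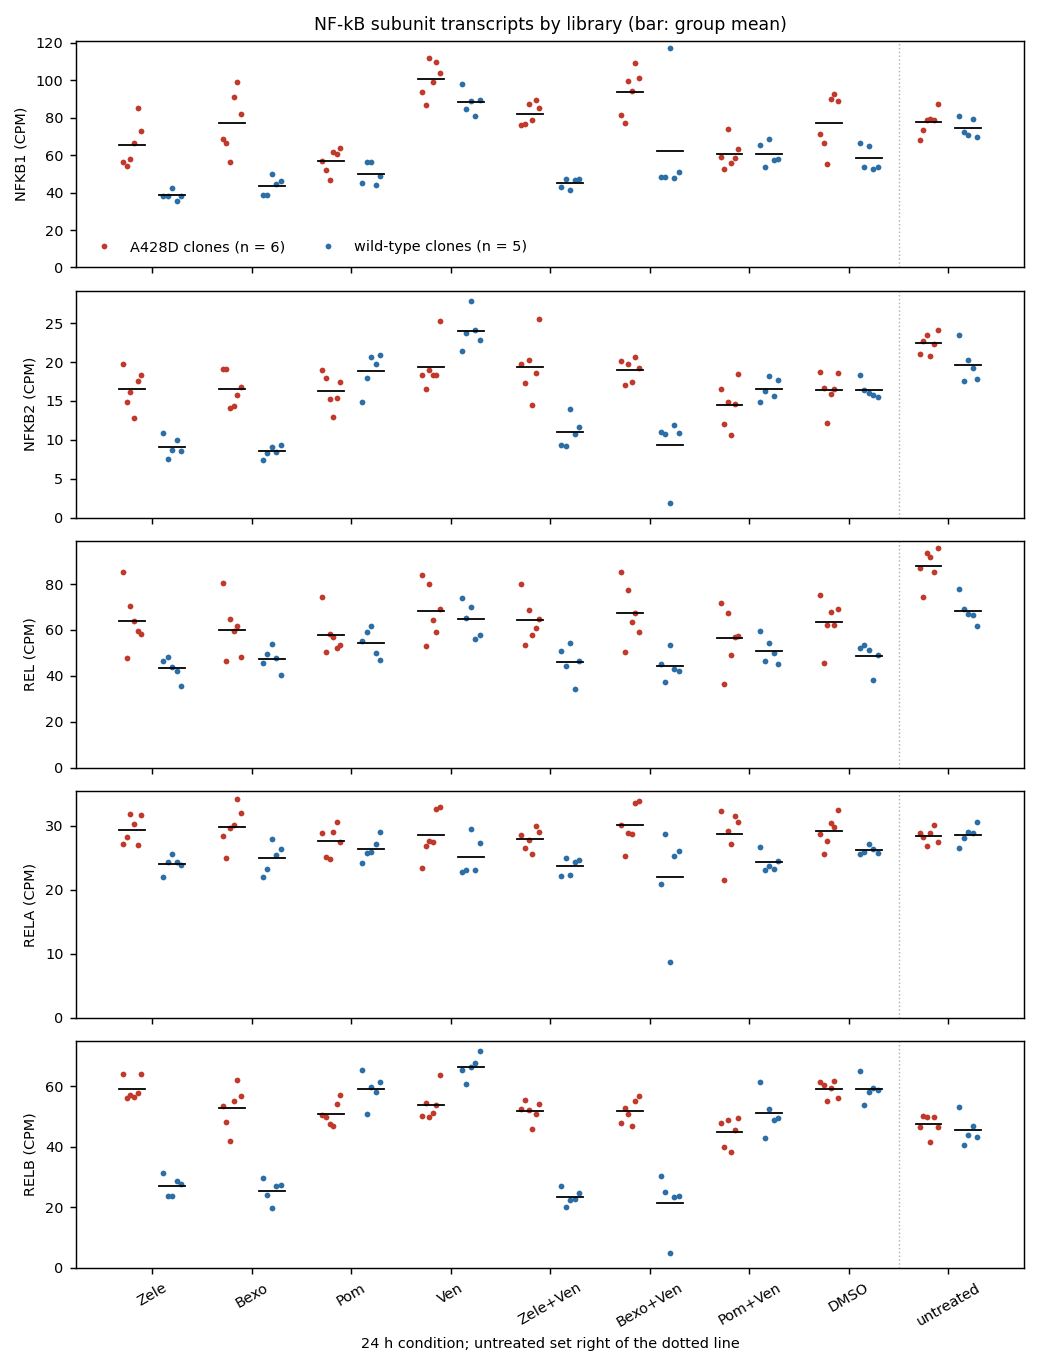
CPM of each subunit in every library, by condition, with A428D clones left of wild-type clones and black bars at group means. The wild-type libraries with zelebrudomide or bexobrutideg, alone or with venetoclax, form the low groups of RELB and NFKB2; the single point at 117 CPM of NFKB1 and 4.82 CPM of RELB is the shallowest library.

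The order of the groups differed between subunits. RELB was highest in wild-type clones given venetoclax (66.4 ± 3.90 CPM, SD, n = 5), lay between 45.1 and 59.2 CPM in 13 groups, and was lowest in the 4 wild-type groups with a BTK degrader. These were at 27.1 ± 3.33 CPM with zelebrudomide, 25.6 ± 3.84 with bexobrutideg, 23.4 ± 2.61 with zelebrudomide plus venetoclax, and 21.6 ± 9.77 with bexobrutideg plus venetoclax (25.8 ± 3.22 without the shallowest library). Of the 17 pairs of neighbours in this order, 3 differed by more than the larger SD and 1 had ranges that did not overlap, the gap of 17.9 CPM above the 4 low groups. NFKB2 had the same highest group (24.0 ± 2.41 CPM) and the same 4 lowest groups, between 8.52 and 10.995 CPM (to 11.14 CPM without the shallowest library). NFKB1 was highest in A428D clones given venetoclax (100.8 ± 9.59 CPM) and lowest in wild-type clones given zelebrudomide (38.5 ± 2.39 CPM). REL was highest in untreated A428D clones (87.9 ± 7.71 CPM) and lowest in wild-type clones given zelebrudomide (43.3 ± 4.79 CPM), or, without the shallowest library, in wild-type clones given bexobrutideg plus venetoclax (41.9 ± 3.36 CPM, n = 4). With library totals alone as the scaling the untreated groups were higher. The highest NFKB2 group was then the untreated A428D clones (25.97 CPM, against 24.70 in wild-type clones given venetoclax), and the highest RELA group the untreated wild-type clones (33.67 CPM). Among neighbours, 2 pairs for NFKB2, 2 for NFKB1 and 1 for REL differed by more than the larger SD, all with overlapping ranges. RELA ran from 27.6 to 30.1 CPM over the A428D groups and from 21.9 to 28.6 CPM over the wild-type groups (from 23.7 CPM without the shallowest library), and 0 of its 17 neighbouring pairs differed by more than the larger SD.

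Zelebrudomide lowered RELB, NFKB2 and NFKB1 in wild-type clones, so that 3 of 5 subunits were called where 6.57% of all genes were. RELB, the partner of p52 in the non-canonical branch, was at 31.5, 23.8, 23.8, 28.9 and 27.7 CPM in clones 1 to 5 given zelebrudomide, against 65.0, 53.7, 58.1, 59.5 and 59.0 CPM under DMSO. The ranges were far apart, and every treated clone was below every DMSO clone. The log2 fold change was -1.11 ± 0.12 (SE, n = 5 clones per group; adjusted p = 1.6e-10 by edgeR's quasi-likelihood test over 14962 genes). NFKB2, the precursor of p52, was at 10.9, 7.49, 8.69, 9.97 and 8.59 CPM with zelebrudomide, against 18.34, 16.45, 15.97, 15.80 and 15.53 CPM under DMSO. Again no treated clone reached the lowest DMSO clone, and the log2 fold change was -0.83 ± 0.15 (adjusted p = 3.3e-05). NFKB1, the precursor of p50, was at 38.2, 38.0, 42.3, 35.7 and 38.3 CPM with zelebrudomide, against 66.3, 53.6, 64.7, 52.8 and 53.7 CPM under DMSO. Its groups did not overlap either, with a log2 fold change of -0.59 ± 0.14 (adjusted p = 0.0038). REL, the c-Rel protein gene, and RELA, which encodes p65, were not called. Their log2 fold changes were -0.16 ± 0.15 (95% interval -0.45 to 0.13) and -0.11 ± 0.11 (-0.32 to 0.10). The RELA ranges did not quite touch, at 21.92 to 25.60 CPM with zelebrudomide and 25.66 to 27.18 CPM under DMSO. How many of all genes had separate ranges was not counted, so separate ranges are descriptions here and below. In these wild-type clones the summed level of 5 fibroblast and endothelial markers, of which only COL1A1 and PECAM1 averaged above 1 CPM, ran from 15.3 to 21.1 CPM with zelebrudomide and from 8.35 to 12.7 CPM under DMSO. Its part in the subunit changes was not tested.

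Bexobrutideg, the other BTK degrader, lowered RELB and NFKB2 in wild-type clones, 2 of 5 subunits against a background of 2.45% of genes (366 genes, and 1582 with the clone as a block). RELB was at 29.8, 24.0, 19.8, 27.0 and 27.3 CPM in clones 1 to 5 given bexobrutideg, against the DMSO values above, with a log2 fold change of -1.19 ± 0.12 (adjusted p = 1.7e-11). NFKB2 was at 7.44, 8.30, 9.02, 8.47 and 9.34 CPM with bexobrutideg, and its log2 fold change was -0.93 ± 0.15 (adjusted p = 1.1e-05). Neither gene's treated range touched its DMSO range. NFKB1 was at 38.46, 38.89, 49.99, 44.83 and 46.27 CPM with bexobrutideg, below all 5 DMSO values. Its log2 fold change of -0.40 ± 0.14 was not called (adjusted p = 0.13), but it was with the clone as a block (adjusted p = 0.011) and without the shallowest library (adjusted p = 0.027). REL and RELA had log2 fold changes of -0.03 ± 0.15 and -0.05 ± 0.10, with 95% intervals of -0.32 to 0.26 and -0.26 to 0.16. The summed fibroblast and endothelial markers ran from 8.86 to 18.1 CPM with bexobrutideg, a range that overlapped DMSO.

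In A428D clones the same compounds called no subunit. RELB in A428D clones ranged from 56.1 to 64.0 CPM (median 57.4) with zelebrudomide and from 41.9 to 62.3 CPM (median 54.3) with bexobrutideg, against 55.3 to 61.6 CPM (median 60.0) under DMSO. NFKB2 ranged from 12.9 to 19.7 CPM (median 16.9) with zelebrudomide and from 14.1 to 19.2 CPM (median 16.3) with bexobrutideg, against 12.2 to 18.8 CPM (median 16.6) under DMSO. Treated and DMSO ranges overlapped for both genes and both compounds. The 95% interval of the log2 fold change ran from -0.21 to 0.22 for RELB and from -0.24 to 0.27 for NFKB2 with zelebrudomide, and from -0.37 to 0.06 and -0.24 to 0.27 with bexobrutideg. For NFKB1 the log2 fold change was -0.24 ± 0.13 with zelebrudomide (95% interval -0.49 to 0.01), lower in 5 of 6 clones, and 0.01 ± 0.13 with bexobrutideg. With edgeR, 0 of the 5 subunits passed an unadjusted p of 0.05 for either compound, and DESeq2 and the clone block also called 0. Over all genes, zelebrudomide called 2.06% in A428D clones. Bexobrutideg called 0 genes with edgeR and 0 with DESeq2, where 288 of 14962 had an unadjusted p under 0.05 and the clone block called 2.

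Whether the genotypes responded differently was tested with an interaction term, the log2 change in A428D clones minus that in wild-type clones, and RELB and NFKB2 were called for both degraders. For zelebrudomide the difference was 1.11 ± 0.16 for RELB (95% interval 0.79 to 1.43, adjusted p = 4.5e-06) and 0.84 ± 0.20 for NFKB2 (0.45 to 1.23, adjusted p = 0.0098), against a background of 1.04% of genes. For bexobrutideg it was 1.04 ± 0.16 for RELB (0.71 to 1.36, adjusted p = 4.1e-05) and 0.95 ± 0.20 for NFKB2 (0.56 to 1.34, adjusted p = 0.0031), against a background of 0.615%. The NFKB2 difference for zelebrudomide was no longer called without A428D clone 3 or without wild-type clone 2 (highest adjusted p = 0.088). NFKB1 responses differed by 0.35 ± 0.19 for zelebrudomide and 0.41 ± 0.19 for bexobrutideg, which did not pass the threshold (adjusted p = 0.57 and 0.54). REL and RELA differences ran from -0.04 to 0.17, and none was called. Within clones, the log2 ratio of zelebrudomide to the clone's own DMSO culture ran from -0.11 to 0.19 for RELB in A428D clones and from -1.28 to -1.04 in wild-type clones, and the bexobrutideg ratio ran from -0.40 to 0.02 and from -1.55 to -1.11. The A428D and wild-type ranges were separate for RELB and NFKB2 with both compounds.

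**Figure D2:**
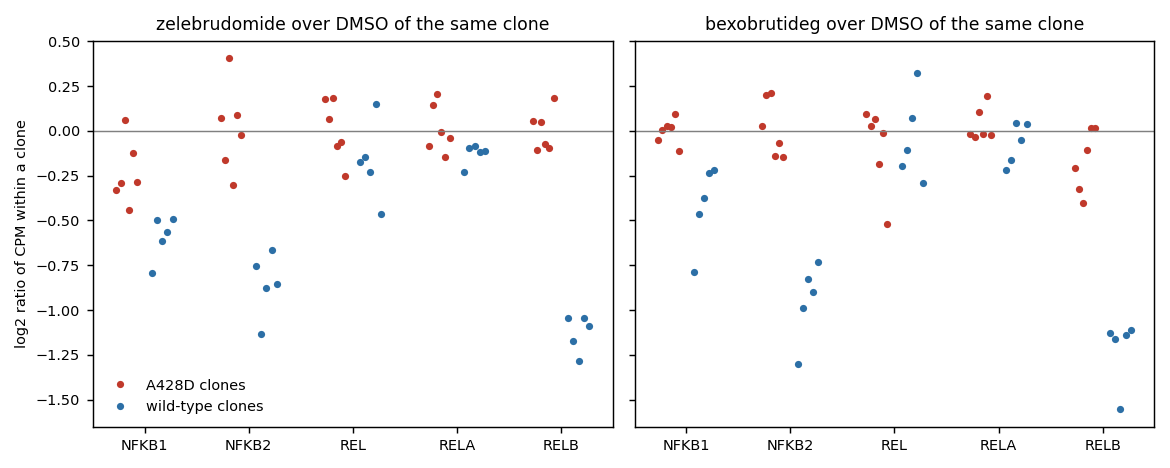
Log2 ratio of CPM under zelebrudomide (left) or bexobrutideg (right) to the DMSO culture of the same clone, with A428D clones left of wild-type clones for each subunit. RELB lies between -0.11 and 0.19 in A428D clones and between -1.28 and -1.04 in wild-type clones with zelebrudomide.

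Pomalidomide, which shares the IKZF1 and IKZF3 activity but does not act on BTK, called 0 subunits in wild-type clones with edgeR (0 with an unadjusted p under 0.05, 0 by DESeq2). It called 9.99% of all genes, a share at which 0 of 5 is not unusual. RELB was at 65.5, 50.8, 59.7, 58.1 and 61.5 CPM with pomalidomide in these clones, which spans the DMSO range. The 95% interval of its log2 fold change ran from -0.23 to 0.23, that of NFKB2 from -0.08 to 0.47 and that of NFKB1 from -0.50 to 0.06. The fibroblast and endothelial markers summed to 14.5 to 35.0 CPM with pomalidomide in these clones and 8.35 to 12.7 CPM under DMSO. The B cell markers summed to 4345 to 4811 and 4815 to 5543 CPM. In A428D clones the fibroblast and endothelial markers summed to 15.8 to 27.4 and 7.92 to 17.8 CPM. The part of these markers was not tested. In A428D clones NFKB1 was called, where 8.68% of genes were. It ranged from 46.8 to 63.7 CPM (median 58.7) with pomalidomide, against 55.4 to 92.9 CPM (median 79.9) under DMSO. The ranges overlapped, each clone was lower than its own DMSO culture, and the log2 fold change was -0.44 ± 0.13 (adjusted p = 0.014). The call was lost without A428D clone 4, 5 or 6 (highest adjusted p = 0.073) and with library totals as the scaling (adjusted p = 0.079). RELB, at a log2 fold change of -0.22 ± 0.11 (adjusted p = 0.27), passed with the clone as a block (adjusted p = 0.041). None of the 5 pomalidomide responses differed between genotypes by edgeR (0 with an unadjusted p under 0.05, 0 by DESeq2), and no gene of the 14962 did (253 with an unadjusted p under 0.05, 0 by DESeq2, 7 with the clone as a block).

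Venetoclax raised NFKB1, NFKB2 and REL in wild-type clones, 3 of 5 subunits where 32.8% of all genes were called. NFKB1 was at 98.0, 84.7, 89.2, 81.1 and 89.3 CPM with venetoclax, above all DMSO clones, with a log2 fold change of 0.57 ± 0.14 (adjusted p = 8.4e-04). NFKB2 was at 21.4, 23.8, 27.9, 24.1 and 22.8 CPM with venetoclax, again above all DMSO clones, with a log2 fold change of 0.52 ± 0.14 (adjusted p = 0.0019). REL was at 74.0, 65.2, 69.9, 56.1 and 57.9 CPM with venetoclax, against 52.3, 53.4, 51.3, 38.0 and 49.3 CPM under DMSO. Its groups were apart by a small margin, the log2 fold change was 0.37 ± 0.14 (adjusted p = 0.040), and the call was lost without wild-type clone 1, 3 or 4 (highest adjusted p = 0.091). Markers moved with these calls, and their part was not tested: the summed B cell markers ran from 4024 to 4715 CPM with venetoclax and from 4815 to 5543 CPM under DMSO, and the fibroblast and endothelial markers from 2.59 to 5.16 and from 8.35 to 12.7 CPM. RELB was higher in 5 of 5 clones but was not called (0.14 ± 0.12). In A428D clones NFKB1 rose, 1 of 5 subunits where 16.8% of genes were called. It ranged from 86.7 to 112 CPM (median 101.4) with venetoclax, against 55.4 to 92.9 CPM under DMSO, and was higher in 6 of 6 clones, with a log2 fold change of 0.36 ± 0.13 (adjusted p = 0.036). Without A428D clone 2 or 3 this call was lost (highest adjusted p = 0.17). In these clones the B cell markers summed to 4687 to 5431 CPM with venetoclax and 5466 to 6291 CPM under DMSO, and the fibroblast and endothelial markers to 2.28 to 7.55 and 7.92 to 17.8 CPM, which was likewise not tested. No subunit response to venetoclax differed between genotypes by edgeR, where 0 passed an unadjusted p of 0.05 and DESeq2 called 0. Over all genes, 0 were called with either tool, 26 with the clone as a block, and 709 had an unadjusted p under 0.05.

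**Figure D3:**
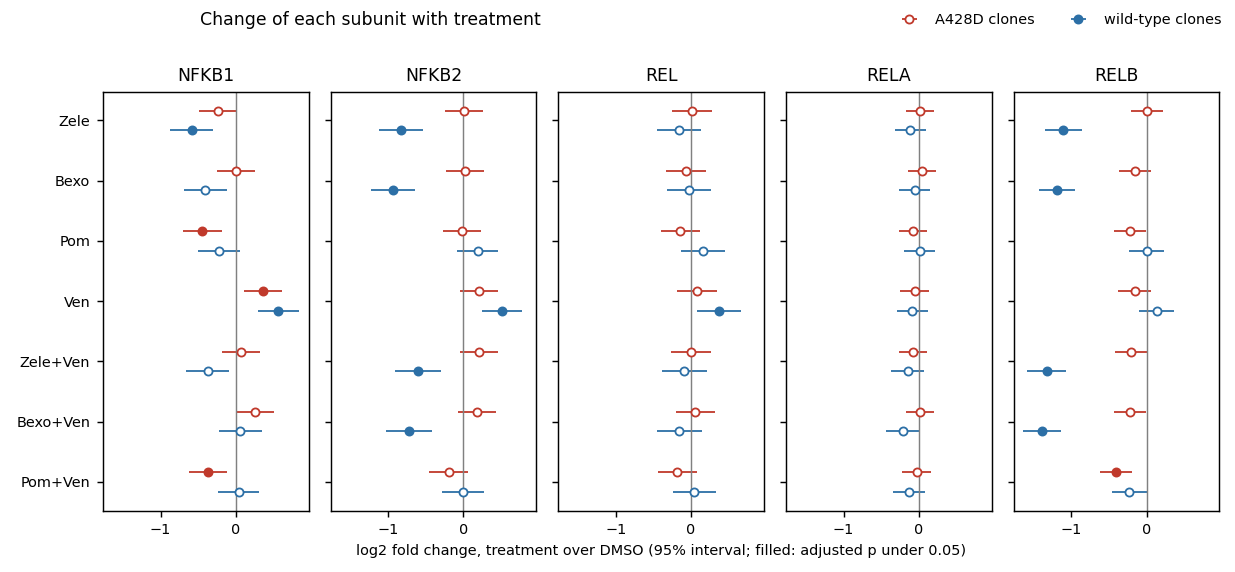
Log2 fold change of each subunit for 7 treatments over DMSO, with 95% intervals, A428D clones above wild-type clones. Filled points had an adjusted p under 0.05. RELB is near -1.11 to -1.39 in wild-type clones wherever a BTK degrader was given, and its A428D intervals for those treatments lie between -0.43 and 0.22.

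With venetoclax present, zelebrudomide lowered 4 of 5 subunits in wild-type clones, where 21.2% of genes were called against venetoclax alone. RELB was at 27.1, 20.1, 22.6, 22.7 and 24.7 CPM with the pair, against 65.4, 60.8, 66.5, 67.6 and 71.6 CPM with venetoclax alone, with a log2 fold change of -1.46 ± 0.13 (adjusted p = 5.0e-15). No treated clone came near the venetoclax range. NFKB2 changed by -1.11 ± 0.15 (adjusted p = 3.1e-08), NFKB1 by -0.94 ± 0.14 (adjusted p = 7.0e-07) and REL by -0.46 ± 0.15 (adjusted p = 0.018), and each was lower in 5 of 5 clones. REL was no longer called without wild-type clone 2 or 4 (highest adjusted p = 0.053). Against DMSO the pair called RELB (-1.33 ± 0.13, adjusted p = 3.8e-13) and NFKB2 (-0.60 ± 0.15, adjusted p = 0.0023), 2 of 5 where 23.4% of genes were called. NFKB1 was at -0.37 ± 0.14 (adjusted p = 0.051), and was called with the clone as a block (adjusted p = 0.014), by DESeq2 (adjusted p = 0.048) and with library totals as the scaling (adjusted p = 0.026). Libraries of this group were shallower, at 3149400 to 6123117 reads against 6490252 to 7393694 with venetoclax alone and 6858767 to 9388855 under DMSO, and their mitochondrial share was 9.41 to 10.3%, against 7.73 to 8.95% and 7.31 to 9.07%. The fibroblast and endothelial markers summed to 8.03 to 12.9 CPM with the pair and 2.59 to 5.16 CPM with venetoclax alone. The part of depth, mitochondrial share and markers was not tested.

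Bexobrutideg added to venetoclax lowered the same 4 genes in wild-type clones, where 15.5% of genes were called. RELB was at 30.5, 25.1, 4.82, 23.5 and 23.9 CPM with the pair, the third being the shallowest library, against the venetoclax values above. All 5 were below every clone with venetoclax alone, and the log2 fold change was -1.52 ± 0.13 (adjusted p = 9.5e-16), or -1.37 without that library (adjusted p = 7.8e-19). NFKB2 changed by -1.24 ± 0.15 (adjusted p = 2.5e-09), or -1.12 without the library, and REL by -0.53 ± 0.15 (adjusted p = 0.0091), or -0.63 without it. These libraries had 1476519 to 6110216 reads, fewer than any with venetoclax alone. Their mitochondrial share was 6.24% in the shallowest library and 9.22 to 9.96% in the others, against 7.73 to 8.95% with venetoclax alone. The part of depth and mitochondrial share was not tested. NFKB1 changed by -0.51 ± 0.14 (adjusted p = 0.0081), or -0.87 without the shallowest library (adjusted p = 6.7e-08), and was not called without wild-type clone 1 or 5 (highest adjusted p = 0.071). With only the groups compared in the fit, NFKB1 (adjusted p = 0.33) and REL (adjusted p = 0.059) were not called. Against DMSO, where 21.3% of genes were called, the pair changed RELB by -1.39 ± 0.13 on the log2 scale (adjusted p = 5.8e-14) and NFKB2 by -0.73 ± 0.15 (adjusted p = 2.3e-04). Without the library these were -1.22 (adjusted p = 3.8e-16) and -0.59 (adjusted p = 0.0012), and with only the groups compared in the fit NFKB2 was not called (adjusted p = 0.072). NFKB1 was at 0.06 ± 0.14 against DMSO with the library and at -0.29 without it (adjusted p = 0.073), so its direction rests on that library. The group mean of NFKB1 was 62.4 ± 30.6 CPM (n = 5) with the library and 48.7 ± 1.63 CPM (n = 4) without it.

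In A428D clones, neither degrader had a called subunit on top of venetoclax. With edgeR, zelebrudomide called 0 of 5 (1 with an unadjusted p under 0.05, NFKB1 at -0.29 ± 0.13, and 0 by DESeq2) where 1.07% of genes were called. Bexobrutideg called 0 of 5 (0 with an unadjusted p under 0.05, 0 by DESeq2) and 0 of all genes (232 with an unadjusted p under 0.05, 0 by DESeq2). Against DMSO, where 26.2% of genes were called, zelebrudomide plus venetoclax called 0 subunits in these clones (0 with an unadjusted p under 0.05, 0 by DESeq2), and RELB, at -0.21 ± 0.11, passed with the clone as a block (adjusted p = 0.029). Bexobrutideg plus venetoclax called 0 where 15.7% of genes were called (2 with an unadjusted p under 0.05, 0 by DESeq2), and NFKB1 (0.25 ± 0.13) and RELB (-0.22 ± 0.11) passed with the clone as a block (adjusted p = 0.036 and 0.028). The combinations' responses differed between genotypes for the same pair of genes as the single degraders. With zelebrudomide plus venetoclax the difference, A428D minus wild type, was 1.12 ± 0.17 for RELB (adjusted p = 5.6e-06) and 0.81 ± 0.20 for NFKB2 (adjusted p = 0.0093), against a background of 3.32%. The NFKB2 difference was lost without wild-type clone 1 or 2 (highest adjusted p = 0.059), and NFKB1, at 0.44 ± 0.19, passed with the clone as a block (adjusted p = 0.048). With bexobrutideg plus venetoclax it was 1.17 ± 0.17 for RELB (adjusted p = 3.3e-06) and 0.91 ± 0.20 for NFKB2 (adjusted p = 0.0043), against 1.94%. Without the shallowest library these were 1.02 (adjusted p = 4.1e-08) and 0.78 (adjusted p = 0.0062), and NFKB1 also passed, at 0.55 (adjusted p = 0.037) where it was at 0.20 with it. The NFKB2 difference was not called with only the groups compared in the fit (adjusted p = 0.096).

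Pomalidomide added to venetoclax lowered NFKB1 and NFKB2 in both genotypes. In A428D clones, where 7.91% of genes were called, NFKB1 ranged from 52.5 to 73.7 CPM (median 58.9) with the pair, against 86.7 to 112 CPM (median 101.4) with venetoclax alone. The ranges were separate and the log2 fold change was -0.72 ± 0.13 (adjusted p = 1.5e-05). NFKB2 in A428D clones changed by -0.40 ± 0.13 (adjusted p = 0.038), a call lost in 6 of the 11 fits without 1 clone (highest adjusted p = 0.13), with no filter (adjusted p = 0.073) and with only the groups compared in the fit (adjusted p = 0.087). In wild-type clones, where 8.41% of genes were called, NFKB1 was at 65.5, 53.6, 68.7, 57.2 and 57.8 CPM with the pair, below all clones with venetoclax alone, with a log2 fold change of -0.53 ± 0.14 (adjusted p = 0.0064). NFKB2 changed by -0.52 ± 0.14 (adjusted p = 0.0062) and RELB by -0.36 ± 0.12 (adjusted p = 0.037). The RELB call was lost without wild-type clone 2, 4 or 5 (highest adjusted p = 0.16). The fibroblast and endothelial markers summed to 7.19 to 13.2 CPM with the pair and 2.59 to 5.16 CPM with venetoclax alone in these clones, which was not tested. REL passed with the clone as a block in both genotypes, with a log2 fold change of -0.27 in A428D clones (adjusted p = 0.0032) against -0.32 for wild type (adjusted p = 9.3e-04), and so did RELB in A428D clones (-0.24, adjusted p = 0.024). Against DMSO, the pair called NFKB1 (-0.36 ± 0.13, adjusted p = 0.023) and RELB (-0.40 ± 0.11, adjusted p = 0.0025) in A428D clones, 2 of 5 where 30.4% of genes were called. The NFKB1 call was lost without any 1 of A428D clones 1, 2, 4, 5 and 6 (highest adjusted p = 0.16) and with library totals as the scaling (adjusted p = 0.12), and REL passed with the clone as a block (-0.19, adjusted p = 0.023). In wild-type clones it called 0 of 5 by edgeR where 36.8% of genes were called (0 with an unadjusted p under 0.05), while RELB, at -0.23 ± 0.12, passed by DESeq2 (adjusted p = 0.040) and with the clone as a block (adjusted p = 0.020). The 5 differences between genotypes included 0 calls by edgeR (1 with an unadjusted p under 0.05, 0 by DESeq2), where 0.00668% of genes were called.

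Set directly against each other in wild-type clones, zelebrudomide and bexobrutideg called 0 of 5 subunits by edgeR (0 with an unadjusted p under 0.05, 0 by DESeq2) where 1.23% of genes were called. The 95% interval of zelebrudomide over bexobrutideg ran from -0.17 to 0.34 for RELB and from -0.21 to 0.42 for NFKB2. Zelebrudomide over pomalidomide in the same clones was -1.11 ± 0.12 for RELB (adjusted p = 6.6e-11) and -1.02 ± 0.15 for NFKB2 (adjusted p = 2.2e-07), where 7.43% of genes were called. NFKB1 (-0.37 ± 0.14, adjusted p = 0.11) and REL (-0.32 ± 0.15, adjusted p = 0.20) passed with the clone as a block (adjusted p = 0.018 and 0.0020). In A428D clones 0 subunits were called for zelebrudomide over bexobrutideg (0 with an unadjusted p under 0.05, 0 by DESeq2) or over pomalidomide (1 with an unadjusted p under 0.05, 0 by DESeq2), where 1.24% and 0.842% of genes were called. These 4 pairs were the compound comparisons made, and adjustment was over all genes of each.

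A428D clones were also set against wild-type clones within each of 9 conditions. Under DMSO 0 of 5 subunits were called by edgeR (2 with an unadjusted p under 0.05; 1 by DESeq2, NFKB1) where 7.13% of genes were. NFKB1 ranged from 55.4 to 92.9 CPM (median 79.9) in A428D clones and from 52.8 to 66.3 CPM (median 53.7) in wild-type clones, with a log2 difference of 0.38 ± 0.13 (adjusted p = 0.075), and REL differed by 0.36 ± 0.12 (adjusted p = 0.078). In untreated cultures, where 5.90% of genes were called, only REL was among the 5: it ranged from 74.4 to 95.7 CPM (median 89.3) in A428D clones and was at 77.9, 69.0, 66.8, 66.5 and 61.5 CPM in wild-type clones. The ranges overlapped at 1 wild-type clone, and the log2 difference was 0.37 ± 0.07 (adjusted p = 0.0038). The B cell markers of these cultures summed to 2993 to 4020 CPM in A428D clones and 2663 to 2902 CPM in wild-type clones, and their part was not tested. With zelebrudomide all 5 were higher in A428D clones, where 13% of genes were called in either direction. The log2 differences were 1.09 ± 0.09 for RELB (adjusted p = 7.5e-06), 0.82 ± 0.13 for NFKB2 (adjusted p = 0.0018), 0.73 ± 0.10 for NFKB1 (adjusted p = 5.9e-04), 0.53 ± 0.13 for REL (adjusted p = 0.021) and 0.25 ± 0.08 for RELA (adjusted p = 0.049). RELA, the sole RELA call in the 40 comparisons, was lost by DESeq2 (adjusted p = 0.060), with no filter (adjusted p = 0.11), with all 88 libraries in the fit (adjusted p = 0.054) and in 9 of 11 fits without 1 clone (highest adjusted p = 0.12), and REL was lost without wild-type clone 5 (adjusted p = 0.053). With bexobrutideg, where 12.3% of genes were called, RELB (1.02 ± 0.12, adjusted p = 3.5e-04), NFKB2 (0.93 ± 0.12, adjusted p = 3.6e-04) and NFKB1 (0.80 ± 0.13, adjusted p = 0.0019) were higher in A428D clones.

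With zelebrudomide plus venetoclax, RELB (1.09 ± 0.09, adjusted p = 1.4e-06), NFKB1 (0.82 ± 0.07, adjusted p = 3.8e-06), NFKB2 (0.79 ± 0.15, adjusted p = 0.0021) and REL (0.44 ± 0.12, adjusted p = 0.016) were higher in A428D clones, where 22.9% of genes were called. Library totals were 6269633 to 7305423 reads in these A428D clones and 3149400 to 6123117 in the wild-type clones, and mitochondrial shares 6.83 to 9.12% and 9.41 to 10.3%, and their part was not tested. With bexobrutideg plus venetoclax RELB alone was called (1.18 ± 0.26, adjusted p = 0.034), where 1.93% of genes were, and that call was lost in 9 of 11 fits without 1 clone (highest adjusted p = 0.10), while DESeq2 called 3 subunits. Without the shallowest library RELB (0.98, adjusted p = 3.8e-05), NFKB1 (0.93, adjusted p = 9.0e-05), NFKB2 (0.75, adjusted p = 6.1e-04) and REL (0.66, adjusted p = 0.0057) were all called. With this pair, library totals were 5050352 to 7613384 reads in A428D clones and 1476519 to 6110216 in wild-type clones. Mitochondrial shares were 6.62 to 9.22% and 6.24 to 9.96%, and the part of both was not tested. With venetoclax alone the direction of RELB was the other way: it was lower in A428D clones, with a log2 difference of -0.31 ± 0.07 (adjusted p = 0.024), where 5.37% of genes were called. It ranged from 49.8 to 63.6 CPM (median 52.6) in A428D clones and was at 65.4, 60.8, 66.5, 67.6 and 71.6 CPM in wild-type clones, and the call was lost without wild-type clone 3, 4 or 5 (highest adjusted p = 0.073) and with all 88 libraries in the fit (adjusted p = 0.13). With pomalidomide, and with pomalidomide plus venetoclax, 0 of 5 were called by edgeR (1 with an unadjusted p under 0.05 in each, 0 by DESeq2), where 3.46% and 2.52% of genes were.

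**Figure D4:**
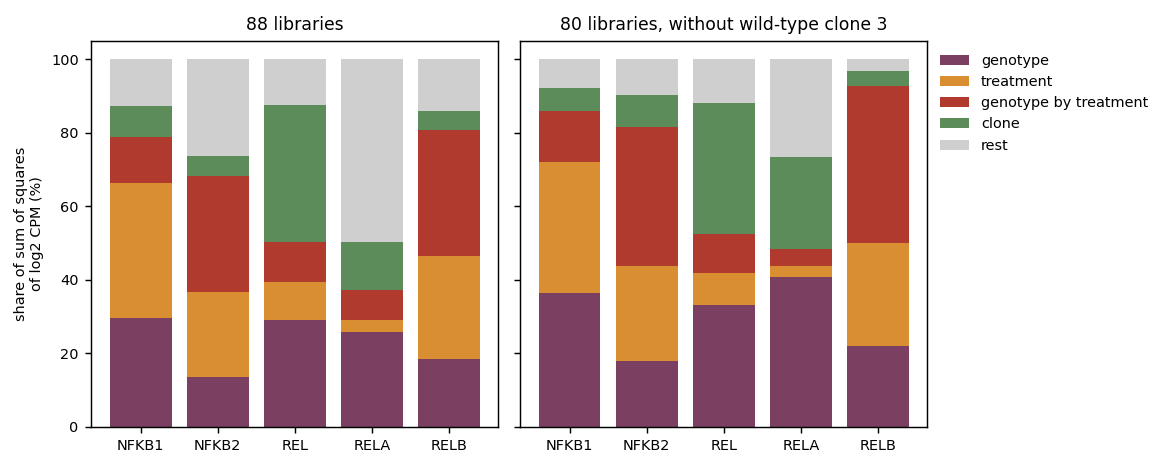
Share of the sum of squares of log2 CPM that lies between genotypes, between treatments, in their combination, between clones of a genotype, and in the rest, for all 88 libraries of the 24 h set (left) and for the 80 without wild-type clone 3 (right). The combination of genotype and treatment takes 34.3% (left) and 42.8% (right) for RELB, and the clone takes 37.3% and 35.5% for REL.

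The subunits differed in where their variation lay. Across the 88 libraries of the 24 h set, the combination of genotype and treatment held 34.3% of the sum of squares of log2 CPM for RELB and 31.5% for NFKB2, against 12.4% for NFKB1, 11.004% for REL and 7.98% for RELA. NFKB1 varied most with treatment (36.8%) and genotype (29.6%). REL varied most between clones of a genotype (37.3%): A428D clone 1 was above and clone 2 below the other A428D clones in all 8 conditions. RELA had the smallest standard deviation over the 88 libraries, 0.24 on the log2 scale against 0.60 for RELB, and 49.6% of its sum of squares was in the rest. Without wild-type clone 3, a choice made after seeing the data, the combined share was 42.8% for RELB and 37.9% for NFKB2. For RELA the rest was then 26.6%, and the largest share was genotype, at 40.7% against 25.9% with all 88 libraries. These shares describe the libraries and were not tested.

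Genes of 3 other NF-kB lists were followed under the degraders. Of 13 NF-kB inhibitors and feedback genes, zelebrudomide lowered 7 and raised 0, with a median log2 fold change of -0.54 against -0.01 over all genes, of which 3.52% were lower. NFKBIA, the gene of IkB alpha, averaged 52.4 ± 6.61 CPM with zelebrudomide and 111 ± 5.81 CPM under DMSO (SD, n = 5 each; log2 fold change -1.07 ± 0.10, adjusted p = 6.2e-13), NFKBID, a nuclear IkB protein gene, changed by -1.15 ± 0.16 (adjusted p = 2.4e-07), TNFAIP3, the ubiquitin-editing inhibitor A20, by -0.87 ± 0.16 (adjusted p = 6.0e-05) and ZC3H12A, the RNase regnase-1, by -0.80 ± 0.18 (adjusted p = 0.0017). Bexobrutideg lowered 6 of the 13, where 1.71% of all genes were lower, among them NFKBID (-1.65 ± 0.17, adjusted p = 1.7e-11), NFKBIA (-1.14 ± 0.10, adjusted p = 1.7e-13), TNFAIP3 (-0.88 ± 0.16) and ZC3H12A (-0.66 ± 0.18). Of 25 NF-kB target genes zelebrudomide lowered 9 (16 with the clone as a block) and raised 3, which were CFLAR, CCND2 and CCR7, where 3.05% of all genes were higher, and bexobrutideg lowered 12 and raised 0. IRF4, a plasma cell and lymphoma transcription factor, averaged 196 ± 11.8 CPM with zelebrudomide and 450 ± 29.2 CPM under DMSO in wild-type clones (log2 fold change -1.19 ± 0.15, adjusted p = 1.1e-08). MIR155HG, the host transcript of miR-155, changed by -1.19 ± 0.16 (adjusted p = 1.1e-07), the cytokine gene IL10 by -1.73 ± 0.39 (adjusted p = 0.0015) and the chemokine gene CCL22 by -1.93 ± 0.46 (adjusted p = 0.0031). With bexobrutideg the 4 changes were -1.02 ± 0.15 for IRF4, -1.48 ± 0.17 for MIR155HG, -1.97 ± 0.40 for IL10 and -2.08 ± 0.47 for CCL22, and all were called. CCL22 and IL10 were low in these wild-type clones. CCL22 averaged 3.74 ± 0.81 CPM (SD) under DMSO, 0.89 ± 1.04 with zelebrudomide (0 to 2.33) and 0.87 ± 0.52 with bexobrutideg. IL10 averaged 7.51 ± 2.07 CPM under DMSO, 2.25 ± 0.83 with zelebrudomide and 1.89 ± 1.06 with bexobrutideg.

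**Figure D5:**
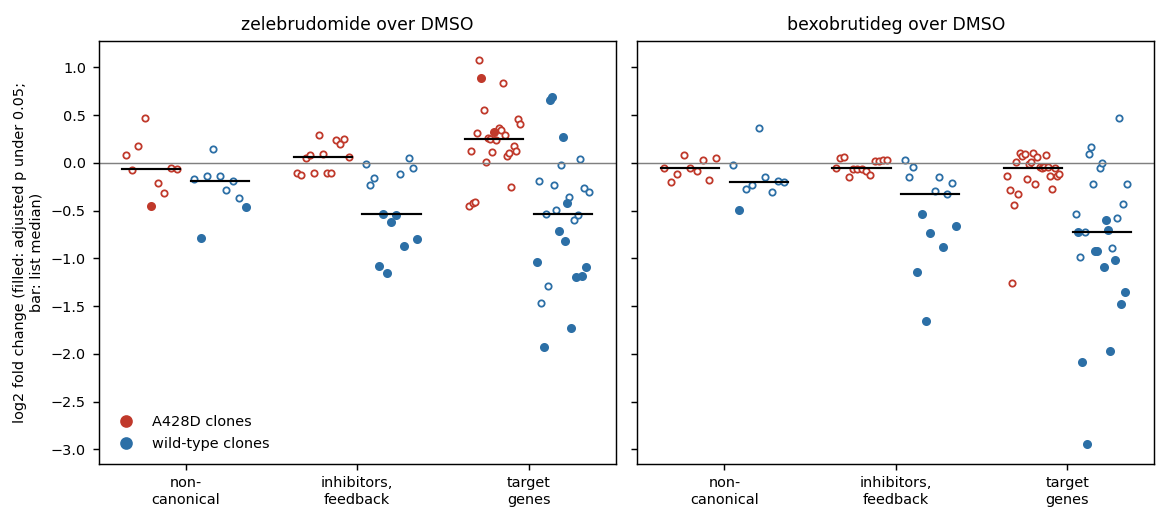
Log2 fold change over DMSO of genes in 3 NF-kB pathway lists with zelebrudomide (left) and bexobrutideg (right), A428D clones left of wild-type clones. Filled points had an adjusted p under 0.05 and bars are list medians; in wild-type clones the inhibitor list has medians of -0.54 and -0.32.

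Of 9 tested non-canonical genes, zelebrudomide lowered 2, where 3.52% of all genes were lower. These were BIRC3, which encodes the ligase cIAP2 and is itself an NF-kB target (-0.79 ± 0.13, adjusted p = 1.4e-05), and TRAF3, the adaptor that directs NIK for degradation (-0.46 ± 0.10, adjusted p = 0.0013). Bexobrutideg, with 1.71% of all genes lower, lowered BIRC3 (-0.49 ± 0.13, adjusted p = 0.022), and with the clone as a block 4 of the 9 were lower and 1 higher. MAP3K14, the NIK gene, was at 0.14 ± 0.17 with zelebrudomide and -0.23 ± 0.18 with bexobrutideg. In A428D clones the inhibitor list had 0 calls by edgeR with zelebrudomide (3 with an unadjusted p under 0.05, 0 by DESeq2) or bexobrutideg (0 and 0), and the target list had 2 higher with zelebrudomide, CFLAR and CCND2, where 1.34% of all genes were higher (8 higher and 1 lower with the clone as a block). The interaction called 4 inhibitors and 7 targets for zelebrudomide (7 and 12 with the clone as a block). For bexobrutideg it called 3 and 5 (6 and 12 with the block). In all of these the log2 response was the more positive in A428D clones. With the block, 1 further target went the other way under bexobrutideg. Over all genes these interactions called 1.04% and 0.615% (155 and 92 genes, and 1011 and 753 with the block). Pomalidomide in wild-type clones raised 15 of the 25 targets, where 5.36% of all genes were higher, and lowered 0 (17 and 3 with the clone as a block). Among those raised were IL6 (1.61 ± 0.34, adjusted p = 3.4e-04) and IL10 (1.54 ± 0.29, adjusted p = 4.4e-05). Without a compound, A428D and wild-type clones already differed in some list genes. Under DMSO, where 7.13% of all genes were called, 0 of 9 non-canonical genes were higher in A428D clones and 1 was lower. The counts were 1 and 1 of 13 inhibitors, and 2 and 5 of 23 tested targets. In untreated cultures, where 5.90% were called, the counts of these lists were 1 and 1, 1 and 2, and 5 and 0. CCL22 (-2.09 ± 0.29, adjusted p = 0.0012), TNFAIP3 (-0.46 ± 0.12, adjusted p = 0.027) and TRAF3 (-0.34 ± 0.09, adjusted p = 0.035) were lower in A428D clones under DMSO. IL6 (1.60 ± 0.31, adjusted p = 0.0080) and TNIP1, an A20-binding inhibitor (0.36 ± 0.08, adjusted p = 0.010), were higher. The levels in A428D and wild-type clones were low for CCL22 (0.88 ± 0.48 and 3.74 ± 0.81 CPM, SD) and IL6 (5.43 ± 1.54 and 1.74 ± 0.98 CPM). MIR155HG was also lower in A428D clones under DMSO (-0.49 ± 0.11, adjusted p = 0.013), and IRF4 and IL10 were not called. In untreated cultures LTB, the lymphotoxin beta gene (1.19 ± 0.18, adjusted p = 0.0054), IL6 (0.97 ± 0.18, adjusted p = 0.0070), OTULIN, a linear-ubiquitin protease (0.65 ± 0.16, adjusted p = 0.036), and MAP3K14 (0.59 ± 0.13, adjusted p = 0.017) were higher in A428D clones. TNFRSF17, the receptor BCMA (-0.40 ± 0.08, adjusted p = 0.010), and TNIP1 (-0.22 ± 0.05, adjusted p = 0.022) were lower there, so TNIP1 went opposite ways in the 2 sets.

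Over the 16 group means of the 24 h set, RELB and NFKB2 were the most alike pair of subunits (Pearson r = 0.94, and 0.92 without the shallowest library), followed by NFKB1 and REL (0.87 and 0.90). The least alike were NFKB1 and RELA with all libraries (0.55) and NFKB2 and RELA without that library (0.51). Among 14962 genes, the 5 named genes outside the family most like RELB were CXCR5, UBALD2, MIR3945HG, PLXNA1 and PGD (r from 0.95 to 0.96), and 4 of them, all but PGD, were also among its top 5 without the shallowest library. For NFKB2 they were MIR3945HG, the IkB beta gene NFKBIB, CARS1, NFKBIA and PLK3 (0.94 to 0.96), of which NFKBIB, CARS1 and NFKBIA were named again. NFKB1 was most like RAB29, PAX9, PTPRF, SMYD3 and EBF1 (0.96 to 0.97), of which PAX9, PTPRF and EBF1 were named again. For REL, 1 of 5 (IL6-AS1) was named again, and for RELA 0 of 5 were. The points share libraries and the same scaling, so these are descriptions without a test.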

How the data were processed

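The authors deposited a table of estimated counts per gene from Illumina sequencing of transcript 3' ends, in which 8.75% of values were not whole, so they were rounded to whole numbers before testing. Per the submitters' processing notes, fastp 0.24.0, STAR 2.7.11, SAMtools 1.22.1 and featureCounts (Subread 2.1.1) were used with GRCh38, with no role or order given, and neither strand setting nor handling of shared reads is stated there. The 92 spike-in rows (0.000976% of counts or less) were not used. Totals ran from 1476519 to 12501775 per library, and no 2 libraries of a group agreed within sampling noise (lowest chi-square per degree of freedom 1.79).

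Genes were filtered with filterByExpr (minimum count 10, minimum total 15), scaled by TMM and tested with edgeR 4.0.16 in R 4.3.3 (quasi-likelihood, robust) with Benjamini-Hochberg adjustment over all genes and a threshold of 0.05. Treatments and interactions came from 1 fit of the 88 libraries of the 24 h set, and A428D against wild-type clones from a fit per condition. The scripts were checked on simulated counts. The replicates are clones of 1 cell line. In a fit per condition each clone entered once, so its p-values measure the spread between these clones. In the fit of 88 libraries each clone entered once in every condition, without a block. Those p-values mix spread between and within clones and treat libraries of a clone as independent. Alternatives were DESeq2 1.42.0, other scalings, no filter, only the groups compared, all 88 libraries, the clone as a block and leaving out each clone in turn. Clone numbers in the labels pair libraries of a genotype: deviations from group means over 500 genes correlated with a median of 0.69 within a clone (308 pairs, lowest 0.06) and -0.19 between clones. Subtracting group means by itself makes correlations between clones of a genotype negative, so the value of -0.19 is not evidence of pairing. Numbers shared across genotypes paired nothing (median -0.06 over 40 pairs).

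Named list genes were, per list, up to 4 with the largest absolute log2 fold change among those called for zelebrudomide against DMSO in wild-type clones, and up to 2 called in A428D against wild-type clones under DMSO or untreated. CFLAR, CCND2 and CCR7, and the values of MAP3K14 under the degraders and of IL6 and IL10 under pomalidomide, were chosen after their values were seen. So were the differences of MIR155HG, IRF4 and IL10 between genotypes under DMSO. A further pathway list is not reported here. The members, lists and tests were chosen with earlier results of these data known, and the values without the shallowest library or wild-type clone 3 were added after seeing the data.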

Additional observations from a re-analysis of the deposited data

Results flagged for a closer look

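In 7 of 90 groups of CPM values (5 genes in 18 groups), 1 clone lay apart from the others by Dixon's criterion, which chance meets in about 5% of groups. In wild-type clones given bexobrutideg plus venetoclax, clone 3, the shallowest library, was apart for 3 genes. It held 117 CPM of NFKB1 where the next clone held 51.1, 1.93 CPM of NFKB2 where the next held 10.8, and 4.82 CPM of RELB where the next held 23.5. In A428D clones given venetoclax, clone 6 was highest for both non-canonical partners, at 25.3 CPM of NFKB2 (next 19.0) and 63.6 CPM of RELB (next 54.6). REL was at 74.6 CPM in A428D clone 1 given pomalidomide (next 58.2) and at 38.0 CPM in wild-type clone 4 under DMSO (next 49.3).

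The responses of RELB and NFKB2 differed between genotypes wherever a BTK degrader was given, by the interaction test. The log2 response in A428D clones minus that in wild-type clones was 1.11 for RELB and 0.84 for NFKB2 with zelebrudomide, and 1.04 and 0.95 with bexobrutideg. It was 1.12 and 0.81 with zelebrudomide plus venetoclax, and 1.17 and 0.91 with bexobrutideg plus venetoclax. The NFKB2 calls were less stable. With zelebrudomide, alone or with venetoclax, they were lost in some fits that left out a single clone. With bexobrutideg plus venetoclax the NFKB2 call was lost with only the groups compared in the fit.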

How the results depend on the processing

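Among recomputed single-gene values, 3421 kept their direction and side of the threshold, 68 passed it only under the alternative, 66 passed it only in the original fit, and 0 of the called changes reversed. Calls among 35 tests of treatments in A428D clones numbered 4, against 9 with the clone as replicate block and 2 with library totals as the scaling. Calls among 20 comparisons between compounds numbered 2, against 4 with the clone as replicate block and 4 when only the groups compared were fitted. Counts of the other families stayed within 1.5 times. Leaving out each clone in turn gave 2 to 5 calls for A428D treatments, 11 to 13 for wild-type treatments, 6 to 8 for interactions, 10 to 14 for additions to venetoclax, 2 to 2 between compounds and 11 to 16 for A428D against wild-type clones. With numbers shared across genotypes as a block, the last family had 14 calls in place of 15. Library totals as the scaling shifted the median of all genes by -0.16 (log2) for zelebrudomide added to venetoclax and -0.11 for zelebrudomide plus venetoclax against DMSO in wild-type clones, and by 0.18 and 0.12 for the zelebrudomide plus venetoclax and zelebrudomide interactions. The causes of these changes were not tested. Depth limits NFKB2 most, with 4.5 to 321 counts per library.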

Other observations

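Untreated cultures formed a separate set, so that the set and the exposure to DMSO cannot be told apart, and their levels are given side by side without a test. REL averaged 87.9 ± 7.71 CPM in untreated and 63.6 ± 10.2 CPM in DMSO cultures of the A428D clones (SD, n = 6 each), and 68.3 ± 5.99 and 48.8 ± 6.24 CPM in those of the wild-type clones (n = 5 each). NFKB2 averaged 22.4 ± 1.319 and 16.4 ± 2.40 CPM in the A428D clones, and 19.7 ± 2.37 and 16.4 ± 1.13 CPM in the wild-type clones. RELB averaged 47.6 ± 3.28 and 59.1 ± 2.74 CPM in the A428D clones, and 45.6 ± 4.87 and 59.1 ± 4.04 CPM in the wild-type clones. NFKB1 averaged 77.5 ± 6.48 and 77.4 ± 15.3 CPM in the A428D clones, and 74.6 ± 5.03 and 58.2 ± 6.68 CPM in the wild-type clones. These gaps depend on the scaling. With library totals alone, RELB averaged 55.12 and 55.15 CPM in untreated and DMSO cultures of the A428D clones, and 53.71 and 59.98 CPM in those of the wild-type clones. NFKB1 then averaged 89.84 and 72.15 CPM in the A428D clones, and 87.91 and 59.32 CPM in the wild-type clones. For RELA in the A428D clones the order turned, from 28.4 and 29.1 CPM with TMM to 32.91 and 27.15 CPM with totals. The single parental library held 76.8 CPM of NFKB1, 20.2 of NFKB2, 68.7 of REL, 28.7 of RELA and 46.6 of RELB, each within the range of the untreated wild-type clones.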
